A study of Mus musculus with 7 samples.

Results

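Beta-defensin genes were followed through a single-cell RNA-seq data set of the mouse seminal vesicle. The members were all genes whose symbol starts with Defb, plus *Spag11a* and *Spag11b*, and 44 of the 30406 genes counted in every library met that rule. UMIs (unique molecular identifiers, barcodes by which each captured RNA molecule is counted once) were found on 40 of the 44, and 35 had at least 50 UMIs over all mice. Those 35 are named here with their values.

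Beta-defensins are small, positively charged secreted peptides held together by cysteine pairs. They damage microbial membranes, and several of them attract immune cells through the receptor Ccr6. The genes lie in a few clusters in the genome, and in rodents a large number of them are expressed in the epithelium of the epididymis, the duct in which sperm mature, where their products coat the sperm surface. *Spag11a* and *Spag11b* are epididymal members of the family, while *Defb1* is known from many epithelia.

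Tissue labelled as seminal vesicle came from 23 wild-type male mice, run as 7 libraries. The aging pool held 10 C57BL/6J mice on chow, with 2 mice of 3 months and, at each of 20 and 28 months, 2 mice without and 2 mice with rapamycin. The diet pool held 8 FVB/NJ mice of 3 months, 2 each on control diet, caloric restriction, high fat and low protein diet, and 3 more FVB/NJ mice of 3 months on control, high fat or low protein diet were run as 1 library each. The remaining 2 libraries, called the FVB aging libraries here, came from 1 FVB/NJ mouse of 3 months and 1 of 18 months on control diet and are named by their labels, young and old. Mice of a pool shared 1 library, and cells of 1 mouse are not replicates, so values are given per mouse, as CPM (UMIs of a gene scaled to the same total in every mouse) over the cells that passed the filters. Low protein, high fat and control diets were fed after weaning, while restricted mice were housed singly and given less food than mice that ate freely, from an age not given in the sources used here. The labels describe a pool as a whole. The table names number the mice of a condition, and no source says what mice of the same number share, so p-values measure the spread between these mice.

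The tissue label was checked before any comparison. *Svs5*, a major secretory protein of the seminal vesicle, was at 3.04 to 3.55 CPM in the FVB aging libraries and at 34607 to 340816 CPM in the other 21 mice. All 7 secretory markers together had a median of 8.56 CPM in these 2 libraries and reached 78725 to 640227 CPM in the others. A list of 16 markers of epididymal principal cells summed to 47148 and 84191 CPM there, against 0.312 to 603 CPM in the other 21 mice. A list of 6 prostate markers was at 0.301 to 1.33 CPM there and at 650 to 22832 CPM elsewhere, and 5 spermatid genes at 27.1 to 42.1 CPM against at most 2.42 CPM. The prostate list holds *Spink1*, which was also a leading gene of a secretory cluster. The FVB diet libraries reached 10875 to 14483 CPM on it with only 0 to 8 *Tgm4*-high cells each, so its sum is not a measure of prostate RNA. The data therefore go against the tissue label of both FVB aging libraries, and in every comparison with them tissue, library and mouse cannot be told apart. A passing cell had a median of 1735 and 2297 UMIs in these libraries, and mice held between 971402 and 46333394 UMIs. Pairs of libraries shared between 1 and 20 cell barcodes.

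The feature that defines the family is a core of 6 cysteines, and it was found in the coding sequence of 40 of the 44 members, over 84 to 99 bases. It was not found in *Defb8*, *Defb33*, *Defb46* and *Defb50*, so *Defb50*, which the results below also turn on, has no core to show. The cores of 6 members that the results below turn on are shown 5′ to 3′ from the GENCODE M21 transcripts, with the cysteine codons in capitals.
Spag11b: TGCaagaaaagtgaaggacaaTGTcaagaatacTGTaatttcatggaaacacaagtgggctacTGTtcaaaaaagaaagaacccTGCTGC
Defb20: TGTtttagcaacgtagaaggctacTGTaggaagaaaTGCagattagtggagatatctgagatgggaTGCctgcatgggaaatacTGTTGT
Defb41: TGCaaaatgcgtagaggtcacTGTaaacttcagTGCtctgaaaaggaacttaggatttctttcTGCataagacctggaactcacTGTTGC
Defb48: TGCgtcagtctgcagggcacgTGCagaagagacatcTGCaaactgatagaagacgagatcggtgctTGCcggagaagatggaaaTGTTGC
Defb42: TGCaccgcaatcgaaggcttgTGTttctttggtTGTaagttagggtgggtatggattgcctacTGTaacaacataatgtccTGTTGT
Defb1: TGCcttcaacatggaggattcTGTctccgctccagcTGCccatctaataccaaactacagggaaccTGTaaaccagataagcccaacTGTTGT
Outside the cysteines the members differ widely, with a median identity of 51.0% over the coding sequences of all 946 pairs. Reads of near copies can be split between genes, which concerns *Defb34* and *Defb15* (91.4% identical), *Defb5* and *Defb3* (85.4%) and *Defb10* and *Defb11* (84.4%). *Defb30* and *Defb42* overlap on opposite strands, as do *Defb15* and Gm36879, and an annotated gene, Gm45826, overlaps *Spag11a* and *Spag11b* on their own strand, so their counts are less certain as well. On their own strand Gm17837 also overlaps *Defb41* and Gm14163 overlaps *Defb36*, though neither was counted as a gene in the deposited tables.

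On the GRCm38 build the members lie at 4 places. Chromosome 8 holds 26, in stretches of 16 and 10 genes separated by 1395 kb. Chromosome 2 holds 11 within 164 kb, chromosome 14 holds 5 within 80.6 kb and chromosome 1 holds *Defb41* and *Defb18*. The promoters on chromosome 14 are shown because its 5 genes differed in the cells that held them, as described below. They run from 250 bases before to 50 bases after each gene start (RefSeq, GRCm38.p6), in the direction of the gene. For *Defb30* that start lies inside a longer GENCODE M21 gene model, chr14:63034087-63049960, and it is this longer model that overlaps *Defb42*. Capitals mark AGAACA or its reverse complement TGTTCT (the hexamer of androgen response elements), TATAAA or TTTATA, and CAGGAAG or CTTCCTG (an ETS-type site).
Defb48, chr14:62984461-62984760, minus strand: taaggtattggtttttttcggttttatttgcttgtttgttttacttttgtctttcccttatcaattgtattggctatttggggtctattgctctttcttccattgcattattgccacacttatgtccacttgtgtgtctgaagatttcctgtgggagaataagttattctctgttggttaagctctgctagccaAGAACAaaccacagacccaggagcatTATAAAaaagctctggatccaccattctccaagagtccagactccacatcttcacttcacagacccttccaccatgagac
Defb47, chr14:62997827-62998126, plus strand: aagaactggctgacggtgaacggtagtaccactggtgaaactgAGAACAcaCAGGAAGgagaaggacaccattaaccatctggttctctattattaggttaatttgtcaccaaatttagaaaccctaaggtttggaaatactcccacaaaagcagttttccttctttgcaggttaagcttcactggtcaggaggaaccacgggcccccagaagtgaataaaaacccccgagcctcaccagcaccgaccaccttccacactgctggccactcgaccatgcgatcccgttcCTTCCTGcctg
Defb43, chr14:63011521-63011820, plus strand: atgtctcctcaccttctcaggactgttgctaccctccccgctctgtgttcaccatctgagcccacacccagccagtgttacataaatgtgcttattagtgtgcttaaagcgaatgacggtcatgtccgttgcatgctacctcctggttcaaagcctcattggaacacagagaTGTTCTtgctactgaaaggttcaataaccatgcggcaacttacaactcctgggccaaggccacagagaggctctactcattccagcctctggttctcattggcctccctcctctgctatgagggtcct
Defb30, chr14:63037797-63038096, minus strand: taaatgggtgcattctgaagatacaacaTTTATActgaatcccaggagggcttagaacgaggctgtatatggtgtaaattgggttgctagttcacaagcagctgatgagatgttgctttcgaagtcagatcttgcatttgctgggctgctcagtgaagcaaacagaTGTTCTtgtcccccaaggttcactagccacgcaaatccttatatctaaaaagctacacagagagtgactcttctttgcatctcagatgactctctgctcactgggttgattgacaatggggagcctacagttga
Defb42, chr14:63046741-63047040, plus strand: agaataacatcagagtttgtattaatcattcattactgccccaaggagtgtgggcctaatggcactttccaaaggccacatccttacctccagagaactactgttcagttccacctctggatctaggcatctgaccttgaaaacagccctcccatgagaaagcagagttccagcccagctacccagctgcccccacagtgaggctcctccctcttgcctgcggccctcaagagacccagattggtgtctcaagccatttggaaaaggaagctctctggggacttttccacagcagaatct
Of the 44 members, 29 had a promoter entry. AGAACA on either strand was present in 18 of the 29 (62.1%), against 6233 of all 32851 promoters of this length. TATAAA was present in 17.2% of the 29 and 13.6% of all promoters, and CAGGAAG in 17.2% and 13.3%. Base composition was not matched between the members and the other promoters.

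The family took up a far larger share of the RNA in the FVB aging libraries than in any other mouse. Its members held 3.90% of the UMIs in the library labelled young and 4.96% in that labelled old. In the other 21 mice the share was between 0.0132% and 0.325%, with a median of 0.0896%. Between 36 and 40 members had a UMI in the FVB aging libraries and between 6 and 21 in the other mice. A sum over all cells of a mouse cannot tell more cells of a type from more RNA per cell. UMIs were counted at transcript ends and not per length, so levels of different members are compared as UMI levels only.

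*Spag11b* was the leading member at 16508 CPM in the young-labelled and 19913 CPM in the old-labelled library, and its highest value in another mouse was 0.546 CPM. *Defb20* followed at 12579 and 14584 CPM, against at most 1.76 CPM elsewhere. *Defb47* reached 3060 and 3145 CPM. These 3 genes did not overlap between the groups. By the mean of both libraries, the next were *Defb48* (931 and 3119 CPM), *Defb42* (1318 and 2157), *Defb25* (776 and 1568), *Defb41* (702 and 826), *Defb45* (663 and 593), *Defb18* (666 and 509), *Defb30* (223 and 777), *Defb28* (521 and 433) and *Defb22* (54.1 and 551). Their order was not the same in both libraries. *Defb41*, *Defb18*, *Defb23*, *Defb12*, *Defb38*, *Defb39* and *Defb26* had no UMI in any of the other 21 mice. Set against 3 UMIs over those 21 mice, *Defb41* was at least 55853-fold and *Defb26*, the weakest of the 7, at least 87.8-fold higher in the FVB aging libraries.

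Lower by their mean, *Defb23* was at 121 and 265 CPM, *Spag11a* at 117 and 249, *Defb12* at 66.0 and 205, and *Defb29* at 69.0 and 134. *Defb43* (101 and 59.8 CPM), *Defb2* (134 and 27.3), *Defb21* (27.2 and 91.5), *Defb15* (35.8 and 71.4) and *Defb40* (53.7 and 36.8) were lower still. The old-labelled library was the higher for most of these genes, but not for *Defb43*, *Defb2* and *Defb40*. *Defb37* was at up to 46.1 CPM, in the old-labelled library, *Defb38* at 12.4 and 39.3, *Defb39* at 8.91 and 38.2, *Defb11* at 24.9 and 8.12, *Defb9* at 25.3 and 1.61, and *Defb10* at 11.8 and 3.83. The faintest named members were *Defb13* (2.78 and 7.39 CPM), *Defb6* (3.95 and 2.41), *Defb14* (1.45 and 3.28), *Defb36* (2.10 and 2.33), *Defb19* (0.685 and 1.91) and *Defb26* (0.322 and 2.08). Of the 28 named members with a UMI in both groups, 3 were under 10 times their pooled level in the other mice.

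Of the 35 named members, 31 had both FVB aging libraries above all other 21 mice, and 0 had both below. Over the 15957 genes with at least 50 UMIs, 34.7% had both above and 0.965% both below. Most named members reached 50 UMIs only through the FVB aging libraries, where they are high, so the count of members is a description and no test. The 4 members that overlapped were *Defb50*, *Defb1*, *Defb6* and *Defb19*. *Defb1* was at 203 and 144 CPM in the FVB aging libraries, within the range of the other mice (9.71 to 489 CPM, median 212). *Defb50* ran the other way, with 0.524 and 0.109 CPM against a median of 520 CPM (0.0280 to 2776) elsewhere. *Defb42* was present in every mouse and did not overlap, at 1318 and 2157 CPM against 1.90 to 177 CPM (median 77.9).

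**Figure D1:**
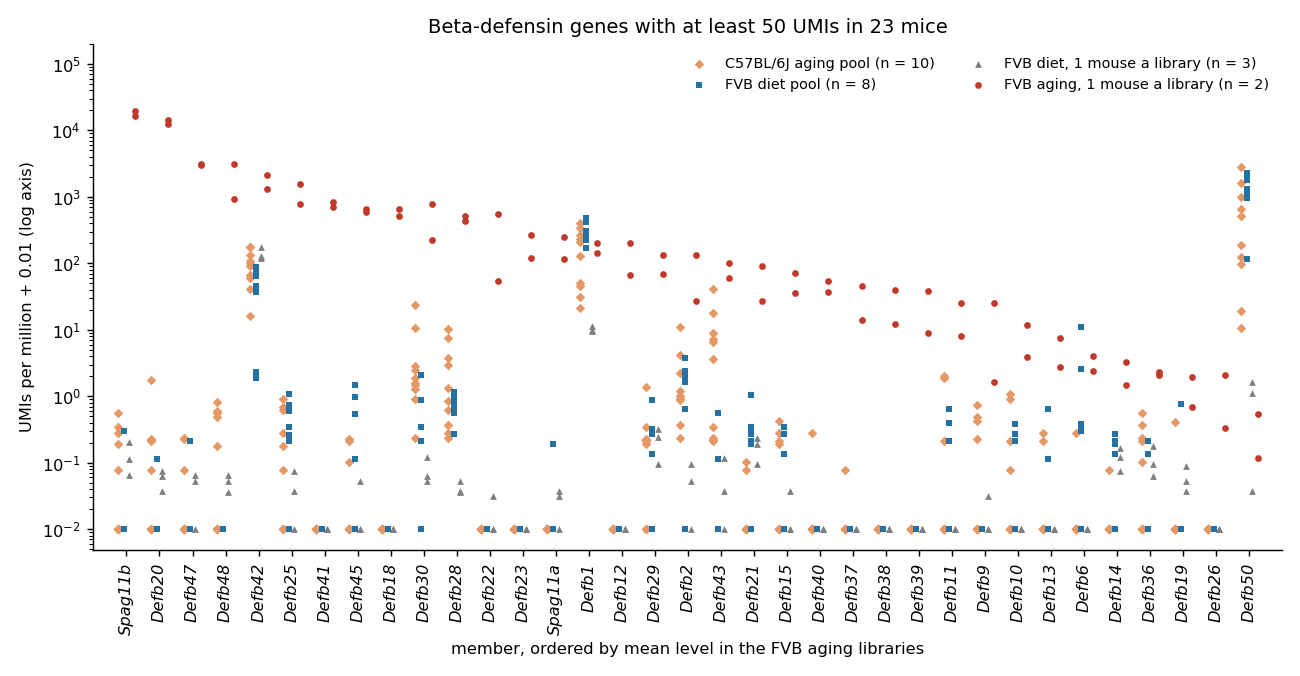
CPM of the 35 named members in each of 23 mice, on a log axis with 0.01 added, so that points on the lowest line stand for 0 UMIs. The FVB aging libraries (red) lie above all other mice for 31 members, and *Defb50*, at the right, has a median of 520 CPM in the other 21 mice, though the 3 FVB diet mice lie low as well.

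The difference was tested across all genes with edgeR's quasi-likelihood test on UMIs summed per mouse, adjusted by Benjamini-Hochberg over the 14005 genes tested. Of 31 members that passed the filter on low counts, 28 were called higher and 1 lower in the FVB aging libraries, where 13.7% of all genes were called higher and 10.8% lower. The filter left out *Defb9*, *Defb14*, *Defb19* and *Defb26*. *Defb41*, *Defb18*, *Defb23*, *Defb12*, *Defb38* and *Defb39* had no UMI in the other mice and passed it only through the FVB aging libraries. Members with few UMIs in the other 21 mice, such as *Spag11b* (25 UMIs), *Defb20* (14) and *Defb22* (1), also passed it through those libraries. Neither the count of members called higher nor their p-values are therefore independent support. The members called higher had log2 differences from 2.88 to 16.04 (median 10.24), beside a median of -0.03 over all genes tested. *Spag11b* differed by a log2 of 15.77 (SE 0.454, adjusted p = 2.07e-19) and *Defb20* by 16.04 (SE 0.416, adjusted p = 2.39e-20). *Defb42* differed by 2.88 (SE 0.934, adjusted p = 0.0264), a call that was lost without either FVB aging library (adjusted p = 0.0882 and 0.290) and without the aging pool (adjusted p = 0.175). *Defb50* differed by a log2 of -12.01 (SE 3.57, adjusted p = 0.0157), and this call too was lost when either FVB aging library was left out (adjusted p = 0.122 and 0.178). *Defb43* (3.75, adjusted p = 0.0234) lost its call without either FVB aging library and without the diet pool, *Defb2* without the young-labelled and *Defb36* without the old-labelled library. *Defb1* (adjusted p = 0.496) and *Defb6* (1.49, adjusted p = 0.470) were not called by edgeR, though *Defb6* was called without the diet pool (6.46, adjusted p = 1.93e-06), where 1 mouse under caloric restriction held 87 *Defb6* UMIs.

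With 1 FVB aging library left out, the mouse that remains is assumed to vary like the other 21. On that assumption 26 members were called higher and 0 lower in either case, and the calls over all genes went from 3437 to 1621 without the young-labelled and 1395 without the old-labelled library. Of all calls, 55.8% were higher with TMM scaling and 93.6% with library size, which moved the median of all genes to 0.87. With library size 4772 of 14005 genes were called higher and 325 lower. Under both scalings 28 members were higher and 1 lower. DESeq2 called 21 of 36 members higher and 1 lower, where 2143 of 17493 genes were called higher and 2569 lower. *Defb11*, *Defb12*, *Defb23*, *Defb38*, *Defb39* and *Defb40* were among the members it did not call.

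The FVB diet libraries, which share strain and a 1-mouse-per-library layout with the FVB aging libraries, were set against them on their own. Of 35 members tested there, 34 were higher and 1 lower, where 32.8% of 15485 genes were called higher and 26.3% lower. Members with no UMI in the diet libraries, such as *Defb41* and *Defb18*, passed the filter only through the FVB aging libraries here too. The same holds for members with few UMIs there, such as *Spag11b* (15 UMIs). The log2 differences of those called higher ran from 1.00 to 16.59. *Defb1*, at 9.71 to 11.4 CPM in the diet libraries, was called higher here by edgeR (1.43, SE 0.147, adjusted p = 0.000191). *Defb50*, at 0.0280 to 1.64 CPM there, was called lower (-4.25, adjusted p = 0.0166), a call lost without the control (adjusted p = 0.0716) or the high fat library (adjusted p = 0.0575). Both comparisons share the FVB aging libraries and the 3 diet libraries, so they are not independent. With library size in place of TMM scaling, the median over all genes moved from 0.14 to 2.77 and the share of higher calls from 55.5% to 98.2%, and the edgeR call for *Defb50* was lost (-1.65, adjusted p = 0.227).

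The young-labelled and old-labelled libraries differed from each other in many members, with 1 mouse each and no replicate check. Of the 35 named members, 23 had a higher and 12 a lower level in the old-labelled library, and the median log2 of old over young was 0.71, against -0.05 over 13902 genes with at least 20 UMIs in each. *Defb22* was at 54.1 CPM in the young-labelled and 551 CPM in the old-labelled library. *Defb30* and *Defb48* were also higher in the old-labelled library, at 777 against 223 CPM and at 3119 against 931 CPM. In the opposite direction, *Defb9* was at 25.3 and 1.61 CPM and *Defb2* at 134 and 27.3 CPM. The cells differed in kind between these libraries as well, since 276 of the cells described below as *Lcn8*-rich were in the young-labelled and 1282 in the old-labelled library.

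The members with under 50 UMIs were at or near 0 in all mice. *Defb3*, *Defb5*, *Defb7* and *Defb46* had no UMI in any mouse. *Defb4*, *Defb8*, *Defb33* and *Defb35* had 1 UMI each, and *Defb34* had 11.

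Cells of the FVB aging libraries were clustered without using any member, *Lcn8* or *Gpx5*. Family RNA was followed in 4 clusters. The *Gpx5*-rich cluster held 1747 cells (858 young-labelled, 889 old-labelled) and the *Lcn8*-rich cluster 1558. *Gpx5*, an epididymal glutathione peroxidase, was at about the same level in both, 81164 and 80824 CPM, and *Lcn8*, an epididymal lipocalin, was at 328 and 37340 CPM. Another cluster of 286 cells was led by *Spint4* and *Lcn5*, and all 3 met the marker rule for epididymal principal cells. A further cluster of 394 cells, led by *Crisp1* and *Akr1b7* and by the member *Defb22*, met no marker rule and is called by its leading gene. All principal cell markers were raised in it, but their level averaged only 0.131 of that in their highest cluster, under the cutoff of the rule. The family held 9.21% of UMIs in *Gpx5*-rich, 8.90% in *Lcn8*-rich, 3.72% in *Lcn5*-led and 2.29% in *Crisp1*-led cells. In epididymal clear cells it held 1.12%, with 0.158% in the young-labelled and 1.89% in the old-labelled library. Cluster 1, named secretory and made up mostly of cells from the other mice, took in 145 cells of these libraries. They had 5.58% family UMIs (1.52% young-labelled, 6.09% old-labelled), *Gpx5* at 43794 CPM and *Svs5* at 0 CPM. In the other clusters with at least 50 cells the family held between 0.0639% (fibroblasts) and 0.501% (macrophages).

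Members peaked in different cells, as the map of levels by cluster shows. The highest level was in the *Crisp1*-led cluster for 12 named members, in the *Lcn5*-led cluster for 9, in the *Lcn8*-rich cluster for 5 and in the *Gpx5*-rich cluster for 4. The peak was in the same cluster in both mice for 31 of the 35. *Defb1*, *Defb19*, *Defb26* and *Defb50* were the exceptions. With finer clusters *Defb41*, *Defb47* and *Defb15* peaked in *Gpx5*-rich cells, and with more mitochondrial RNA allowed *Defb1* peaked in clear cells and *Defb42* in another principal cell cluster. Clusters come from the same cells, so these levels are a description and no test was made.

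The *Lcn5*-led cells held *Defb30* at 9345 CPM in the young-labelled and 12298 CPM in the old-labelled library, against 46.0 to 114 CPM in *Gpx5*-rich and *Lcn8*-rich cells. *Defb23* was at 5334 and 3192 CPM there, and *Spag11a* at 3096 and 2963 CPM. *Spag11a* thereby differed from its neighbour *Spag11b*, which was at 44463 CPM in *Gpx5*-rich cells on average.

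The *Crisp1*-led cells held *Defb28* at 9423 and 5293 CPM and *Defb22* at 858 and 8574 CPM. *Defb2* was at 2452 CPM in the young-labelled and 183 CPM in the old-labelled library, and *Defb9* at 517 and 22.8 CPM, so the difference between these libraries in both genes was present within these cells. *Defb43* was at 1939 and 862 CPM and *Defb40* at 1085 and 553 CPM. On chromosome 8, 8 of the 17 named members peaked in these cells and 5 in the *Lcn5*-led cells. *Defb36* peaked in a cluster of 165 cells led by genes of motile cilia such as *Ccdc153*, at 177 and 59.8 CPM, from 40 UMIs.

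*Defb1* had another pattern. It was at 641 to 1051 CPM in basal clusters 9 and 10, at 558 and 800 CPM in basal cluster 12 and at 896 and 562 CPM in epididymal clear cells, and at most 10.9 CPM in *Gpx5*-rich and *Lcn8*-rich cells. Basal cells lie beneath the secretory layer of the epithelium. *Defb6* also peaked in a basal cluster, at 18.9 CPM on average. In stromal and T cells of these libraries *Spag11b* was at 250 CPM, *Defb20* at 208 CPM and *Defb1* at 27.6 CPM, and the part of free RNA in these levels was not tested.

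**Figure D2:**
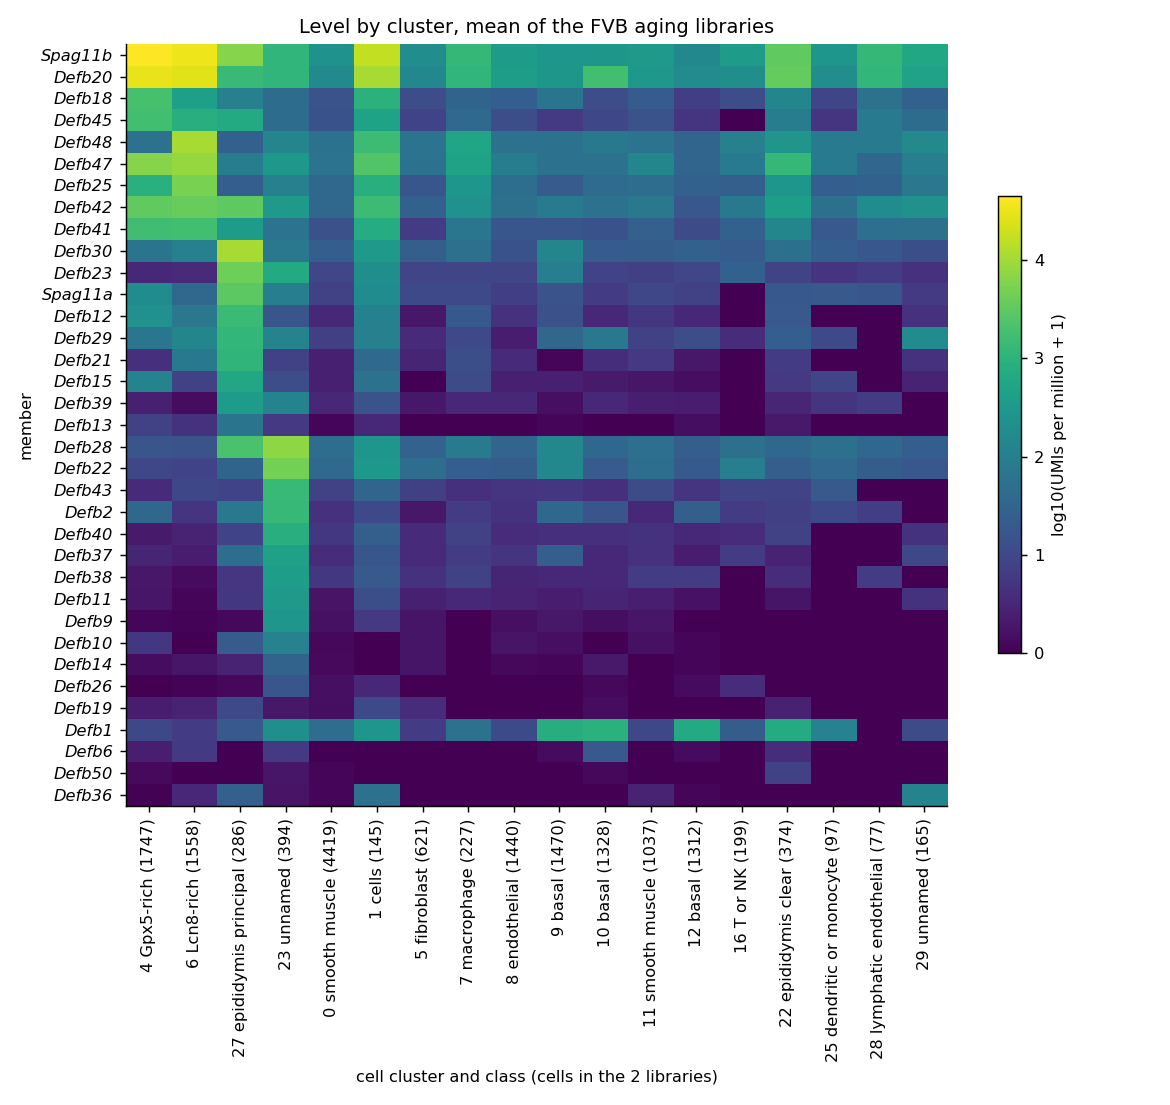
Level of the 35 named members in the clusters with at least 50 cells in the FVB aging libraries, as log10 of CPM plus 1, mean of the 2 libraries. Members are grouped by the cluster of their highest level. *Defb48* is bright in the *Lcn8*-rich cluster, *Defb30* in the *Lcn5*-led cluster 27, *Defb28* and *Defb22* in the *Crisp1*-led cluster 23, and *Defb1* in basal clusters.

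*Lcn8*-rich and *Gpx5*-rich cells were compared within each library. A gene was counted as higher if it differed at least 4-fold in both mice and had at least 20 UMIs, a rule of size and not a test, as the cells of 1 mouse are not replicates. Of 31 members with enough UMIs, 3 were higher in *Lcn8*-rich cells and 4 in *Gpx5*-rich cells, where 2.14% of 12124 genes were higher in *Lcn8*-rich and 2.85% in *Gpx5*-rich cells.

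*Defb48* was at 12282 CPM in *Lcn8*-rich and 24.5 CPM in *Gpx5*-rich cells of the young-labelled library. In the old-labelled library it was at 9859 and 84.6 CPM. The ratio was 502 in the former and 117 in the latter, and the groups did not overlap. *Defb21* differed likewise, at 78.7 against 1.38 CPM and at 69.3 against 5.52 CPM. *Defb25* was at 5706 against 1178 CPM and at 4462 against 612 CPM.

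In *Gpx5*-rich cells *Defb18* was at 2166 and 1751 CPM, which was 4.65 and 4.81 times its level in *Lcn8*-rich cells. *Defb15* was at 79.5 and 161 CPM against 7.52 and 6.05 CPM, *Spag11a* at 159 and 207 CPM against 30.1 and 41.2 CPM, and *Defb2* at 34.3 and 37.6 CPM against 4.63 and 3.52 CPM. *Spag11b*, *Defb20*, *Defb47*, *Defb42* and *Defb41* were within 2-fold between these cells in both mice. On chromosome 14 *Defb48* thus passed the 4-fold rule, while *Defb47* and *Defb42* were within 2-fold.

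Several of these differences depended on how the cells were grouped. When single cells were split by the larger of *Lcn8* and *Gpx5* in place of clusters, 114 cells fell on the *Lcn8* side and 3387 on the *Gpx5* side. In the *Lcn8*-rich cluster *Gpx5* was above *Lcn8* (80824 against 37340 CPM), so most of its 1558 cells fell on the *Gpx5* side. This split therefore did not compare the same 2 kinds of cells as the clusters. *Defb48* then differed by a log2 of 2.85 in the young-labelled and 0.99 in the old-labelled library, against 8.97 and 6.87 between the clusters, and no longer passed the 4-fold rule. *Defb25* (1.59 and 0.46) and *Defb2* (-0.76 and 0.0032) did not pass it either, and *Spag11a* turned to the *Lcn8* side (2.00 and 1.98). *Defb47* (-1.98 and -1.56), *Defb20* (-1.29 and -1.17) and *Spag11b* (-1.13 and -1.19) were outside 2-fold. *Defb21*, *Defb18* and *Defb15* still passed. When cells with *Lcn8* at 1% of UMIs or more were set against cells with *Gpx5* at 1% or more and *Lcn8* under 0.1%, a split added after the data had been seen, *Defb48* was at 11.11 and 8.36 while *Defb21* did not pass and turned sign in the old-labelled library (2.39 and -0.51, against 5.83 and 3.65 between the clusters). The other 6 members still passed under that split.

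**Figure D3:**
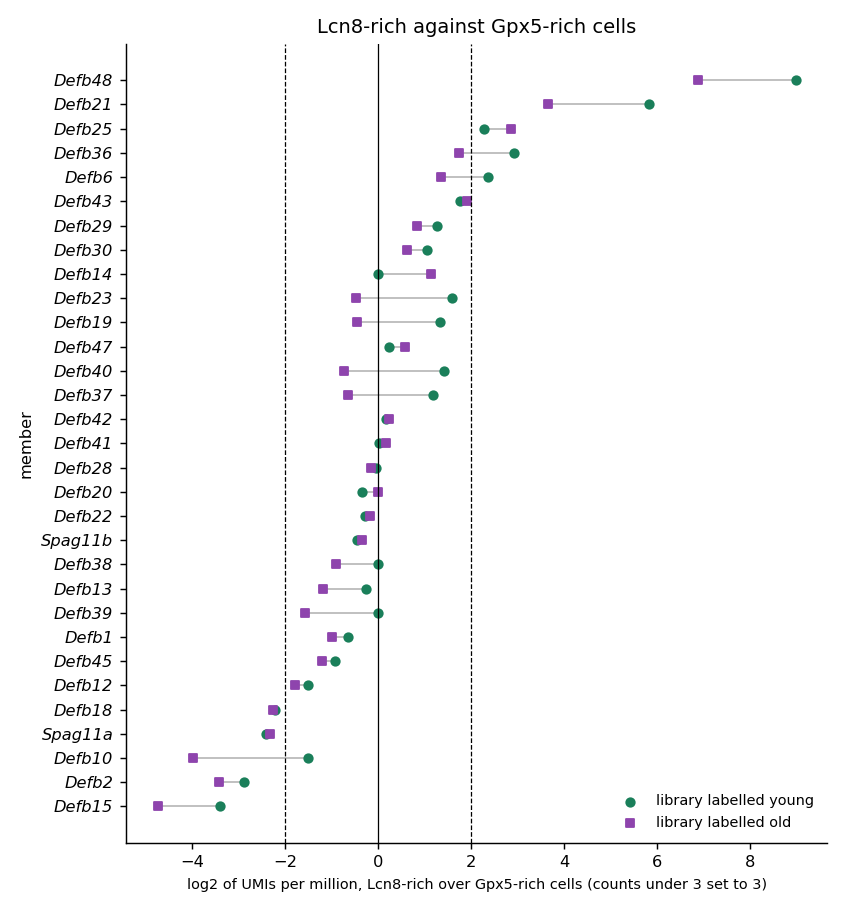
Log2 ratio of CPM in *Lcn8*-rich over *Gpx5*-rich cells for 31 members, with 1 point for each library and dashed lines at 4-fold. *Defb48* lies farthest to the right in both libraries and *Defb15* farthest to the left on average, while *Defb42* and *Defb41* lie near 0.

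Depth per cell was evened by drawing 2000 UMIs from each cell. All *Gpx5*-rich and *Lcn8*-rich cells so thinned held a family UMI, with a median of 166 and 162 family UMIs and 8 members per cell in each. *Lcn5*-led cells had a median of 70 family UMIs and 9 members, and *Crisp1*-led cells 39.5 UMIs and 8 members. The 22 cells of cluster 1 deep enough had a median of 94 family UMIs, and fibroblasts of the same libraries a median of 1. *Defb48* was found in 87.1% of thinned *Lcn8*-rich and 4.29% of *Gpx5*-rich cells, beside 10.6% of fibroblasts. Before thinning these *Gpx5*-rich cells had a median of 7177 UMIs and these fibroblasts 2376. The part of free RNA in either share was not tested. *Defb20* was found in 99.9% of *Gpx5*-rich and 100% of *Lcn8*-rich cells, and in 17.5% of fibroblasts.

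The other 21 mice held few members at any level. *Defb50*, *Defb1* and *Defb42* gave 163634 of their family UMIs, or 99.1%, and the remaining members 1414 UMIs in all. Secretory cells with a family UMI made up 20.5% of those thinned, basal cells 58.7% and prostate-like cells 43.8%, against 7.73% of macrophages. Prostate-like cells were named from prostate markers such as *Tgm4*, but the class joined unlike clusters. In 510 cells *Tgm4* was at 13834 CPM, *Svs5* at 13899 CPM and *Defb50* at 8383 CPM. In 720 cells *Tgm4* was at 1050, *Defb50* at 314 and *Svs5* at 248566 CPM, beside 250279 CPM in secretory cluster 15. Values of the class mix both.

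*Defb50* was highest in prostate-like cells, at 6346 ± 6669 CPM (SD, n = 20 mice), followed by basal cells at 763 ± 980 CPM (n = 20). The spread between mice was as large as the mean in both. With finer clusters B cells (1213 ± 2566 CPM, n = 11) ranked between them. Without doublet removal, cells named Schwann, described below, did so (876 ± 1742 CPM, n = 7). In the *Tgm4*-high cluster of 510 prostate-like cells, 12 mice with at least 10 such cells held *Defb50* at 299 to 27393 CPM, with a median of 9540 CPM. The mice of the 3 FVB diet libraries held only 0 to 8 of these cells and had *Defb50* at 0.0280 to 1.64 CPM over all cells. Basal cells of those libraries had *Defb50* at 0 to 8.42 CPM, against 342 to 3234 CPM in the basal cells of the diet pool, the same strain and age. These basal cells lay in different clusters, since 1199 of those from the diet libraries were in cluster 13 and 839 of those from the diet pool in cluster 17, so cluster and library cannot be told apart. *Psca*, a surface protein of several epithelia, was at 0.641 CPM in the former and 311 CPM in the latter. The aging pool had basal cells in both, with *Defb50* at 193 CPM over 81 cells of cluster 13 and 443 CPM over 134 cells of cluster 17. The part of free RNA from prostate-like cells of the pools in these basal values was not tested.

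*Defb1* was at 937 ± 789 CPM (SD, n = 20) in prostate-like cells, 461 ± 207 CPM (n = 20) in basal cells and 308 ± 250 CPM (n = 15) in smooth muscle. Smooth muscle joined unlike clusters, with *Defb1* at 758 CPM in 428 cells and at 11.9 and 9.65 CPM in 66 and 280 cells. It ranked above basal cells with finer clusters (629 against 465 CPM) and without doublet removal (560 against 436 CPM). The level of *Defb1* in basal cells was 434 to 531 CPM in the 3 diet libraries, 491 to 905 CPM in the diet pool and 162 to 384 CPM in the aging pool. *Defb42* had its highest median over mice in secretory cells, at 126 CPM, with a mean of 127 ± 73.3 CPM (SD, n = 21). Cells that met no marker rule had a higher mean, 228 ± 450 CPM (n = 7), with a median of 13.7 CPM and 1 mouse at 1211 CPM. For comparison, prostate-like cells had 43.3 ± 64.7 CPM and basal cells 7.75 ± 10.7 CPM. Cells named Schwann, the cells that wrap nerves, had 91.2 ± 53.7 CPM (n = 6), and macrophages a median of 3.59 CPM. The Schwann cluster of 326 cells was led by *Iglc1* and *Ighm*. It held *Svs5* at 275132 CPM, against 250279 to 340108 CPM in secretory clusters. With finer clusters 82 cells kept the name. The part of secretory RNA in its *Defb42* level was not tested.

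**Figure D4:**
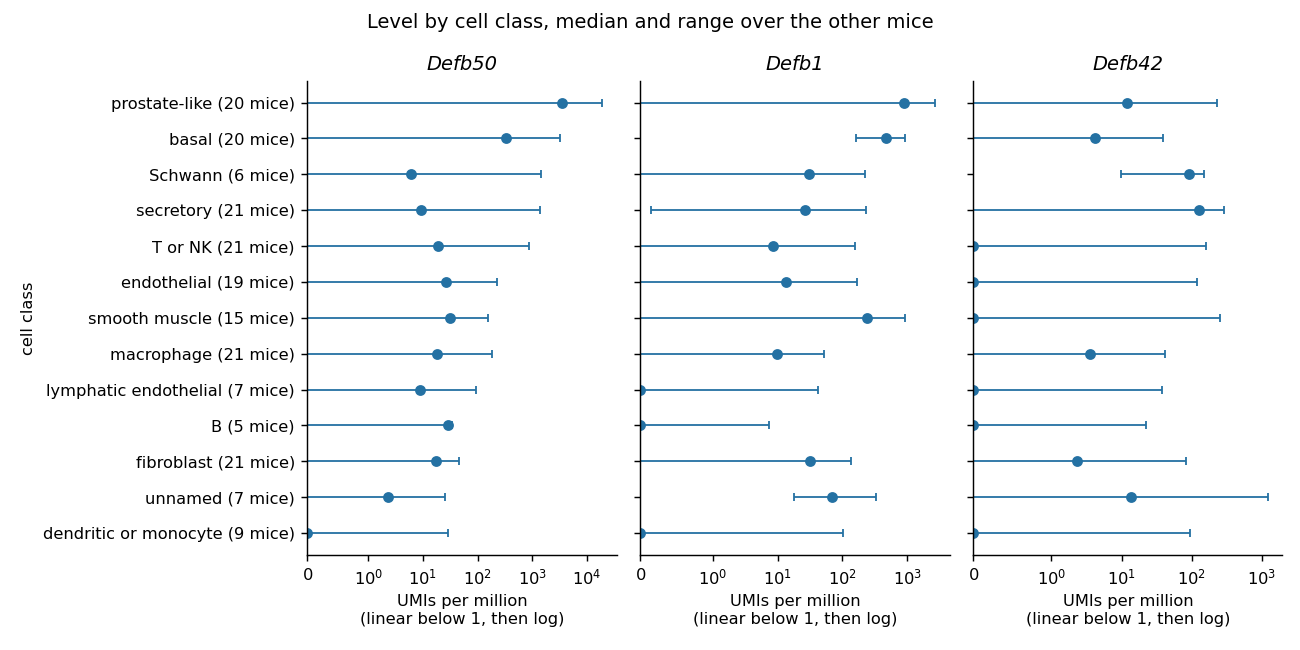
Median (point) and range (line) of *Defb50*, *Defb1* and *Defb42* over mice, as CPM, in each cell class of the 21 mice other than the FVB aging libraries, with the axis linear below 1 and logarithmic above. By the median, with the clusters shown, *Defb50* and *Defb1* lie highest in prostate-like and basal cells and *Defb42* in secretory cells. The place of basal cells changed with finer clusters and without doublet removal.

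In secretory cells of the diet pool *Defb42* was near 0 in mice under caloric restriction. The 2 restricted mice had 3.52 CPM (11 UMIs in 89 cells) and 0 CPM (0 UMIs in 18 cells, where 3 UMIs would be 8.04 CPM). The 2 control mice of the same pool had 139 and 82.0 CPM, and the 19 mice other than the restricted ones lay between 31.7 and 285 CPM. The 2 restricted mice thus lay below every other mouse.

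The share of secretory cells with a *Defb42* UMI was 5.62% and 0% in restricted mice and 51.2% and 53.3% in controls. With the edgeR test over 5379 genes the log2 difference was -5.51 (SE 0.482, adjusted p = 0.00085), 1 member lower of 3 tested, where 0.465% of genes were called lower and 0.0558% higher. The call stood under DESeq2 (adjusted p = 5.16e-06) and within the largest secretory cluster alone (-5.57, adjusted p = 0.000309), an alternative added after the data had been seen. It was lost when all passing cells were summed (-5.19, adjusted p = 0.0844). *Svs5* was at 264509 and 256953 CPM in secretory cells of the restricted mice, within the range of the others. Both restricted mice came from 1 pool and the test compared 2 mice with 2.

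**Figure D5:**
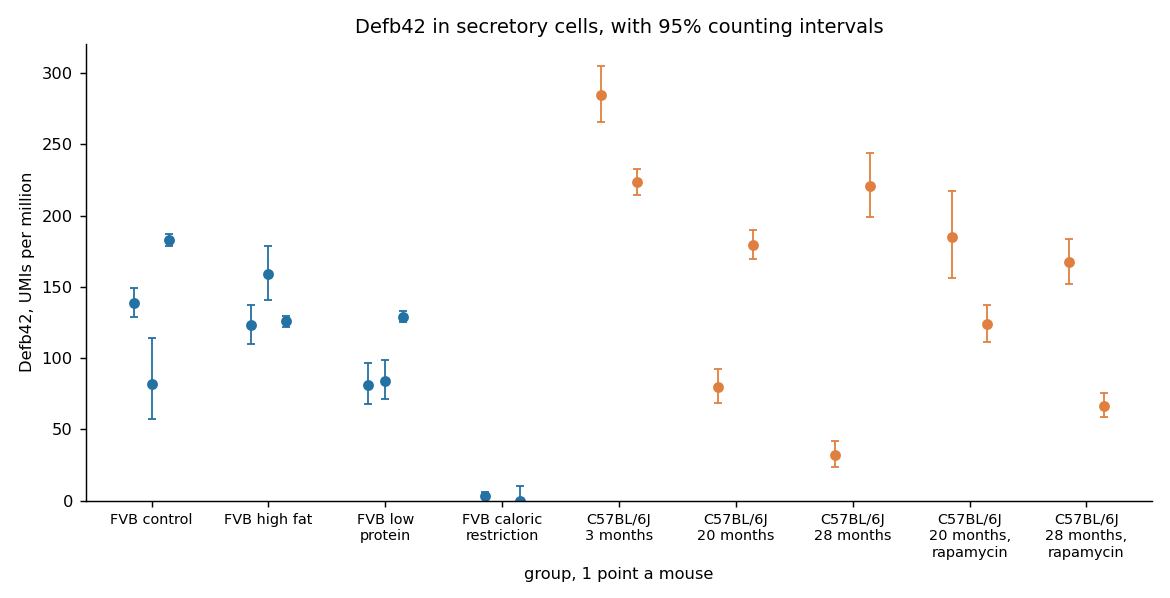
*Defb42* in secretory cells as CPM, 1 point for each mouse with its 95% counting interval, by strain and treatment. The 2 mice under caloric restriction lie at 3.52 and 0 CPM and all other mice between 31.7 and 285 CPM.

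*Defb50* and *Defb1* were not called under caloric restriction (log2 2.84, adjusted p = 0.605, and -2.01, adjusted p = 0.436), but with 1 of 4 mice left out *Defb50* was called higher in 3 of 4 cases and *Defb1* lower in 2. High fat diet gave 0 edgeR calls in 7086 genes (210 at an unadjusted p under 0.05, and 0 by DESeq2), and low protein diet 2 in 7025 genes (0.0285%), with 0 of 3 members among them. *Defb42* differed by a log2 of 0.21 under high fat diet and -0.41 under low protein diet, with adjusted p of 1.00 in both. *Defb50* was called higher under high fat diet when 1 high fat mouse of the pool was left out (3.08, adjusted p = 0.0225), and *Defb1* lower under low protein diet without the single-mouse control (-2.41, adjusted p = 0.0270) or low protein library (-2.41, adjusted p = 0.0347). From 3 to 28 months edgeR called 0 of 6555 genes (359 at an unadjusted p under 0.05, 12 by DESeq2). *Defb1* came nearest, falling by a log2 of 0.18 a month with an adjusted p of 0.0552, and it was called by DESeq2 (adjusted p = 0.0448) and by edgeR when either of 2 of the 20-month mice was left out (adjusted p = 0.0440 and 0.00396). Secretory cells of the diet libraries held *Defb1* at 0.147 to 0.355 CPM and those of the pools at 3.98 to 230 CPM, and the part of free RNA in these levels was not tested.

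The *Crisp1*-led cluster also took in 22 cells from 13 pool mice, 14 of them C57BL/6J and 8 FVB/NJ. These gave 311 of the 333 *Defb43* UMIs counted in the other 21 mice (93.4%), 136 of 186 *Defb30* UMIs (73.1%) and 110 of 174 *Defb28* UMIs (63.2%). *Defb42* was at 640 CPM in these 22 cells, *Crisp1* at 26066 CPM and *Svs5* at 25244 CPM. No such cell was found in the FVB diet libraries.

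From a list of 20 other genes of epithelial defence, 16 were tested by edgeR in the FVB aging libraries against the other 21 mice, and 4 were higher and 3 lower (13.7% and 10.8% of all genes). Those higher were *Ptgds* (log2 5.63), *Lcn2*, which binds bacterial siderophores (4.34), *Ltf*, the iron-binding lactoferrin (3.60), and *Wfdc2* (1.81). *Pigr*, the receptor that carries antibodies across epithelia (-6.54), *Lyz2*, a lysozyme of macrophages (-3.62), and *Tlr4*, a receptor for bacterial lipopolysaccharide (-1.80), were lower. *Ptgds* and *Lcn2* were called higher under every alternative run. With library size scaling 1 of the 20 was called lower, *Pigr*, and 1 without the aging pool or without either FVB aging library, *Tlr4*. The count called higher was 2 without the young-labelled and 3 without the old-labelled library, and DESeq2 called 3 higher and 4 lower.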

How the data were processed

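The authors deposited UMI counts per gene and cell, with 1 table for each mouse, made with Cell Ranger 6.0.1 for the pools and 3.1.0 for the single-mouse libraries per the file headers. The submitters' processing notes also name mm10 and Seurat. Which mouse of a pool had which treatment follows from its table's name and the study's list of animals, since the labels describe a pool as a whole. The members, gene lists and comparisons were chosen with earlier results of these data known. Named members are those with at least 50 UMIs over all mice.

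Of 53352 deposited cells, 40342 were kept, with 500 genes or more, 200 UMIs or more and mitochondrial RNA up to 10%. Doublets were removed by score, at the rate expected from cell numbers in single-mouse libraries and at that rate divided by the number of mice in the pools. Cells were clustered on Pearson residuals of 2000 variable genes (30 components, 15 neighbours, Leiden) without the members, *Lcn8* and *Gpx5*, and clusters were named from marker lists. UMIs were summed per mouse, or per mouse and class with at least 10 cells, and tested with edgeR 4.0.16 (TMM, filterByExpr, quasi-likelihood, adjusted p under 0.05) in R 4.3.3. The high fat and low protein tests carried pool or single-mouse library as a term, and the age test rapamycin. Mice held 971402 to 46333394 UMIs. Intervals are 95% Poisson, for counting error only. Alternatives were DESeq2 1.42.0, no filter on low counts, library size scaling, other cells, each mouse left out, and a replicate block on the numbers in the table names.

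On simulated counts 200 genes were changed by a log2 of 2, up or down at random, with the same spread between mice set for every gene. The test recovered 95.3% of the changed genes that were tested against the 21 mice (14005 genes) and 77.7% against the 3 diet libraries (15485). It recovered 81.1% for high fat (7086), 79.9% for low protein (7025), 45.6% for caloric restriction (5379) and 69.1% for age (6555). Unchanged genes made up 7.18% of the calls against the 21 mice, 4.46% against the diet libraries and 0 to 4.20% in the others. Recovery at the spread of these data, and with as many genes changed as in the FVB aging comparisons, was not measured.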

Additional observations from a re-analysis of the deposited data

Results flagged for a closer look

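In 22 sets of values the most extreme mouse was compared with the rest, and 3 sets held a value far from the others. The sets covered *Defb42*, *Defb50*, *Defb1* and the family share, in several kinds of cells of the pools. They shared mice and some levels were skewed, so a rate of about 1 in 20 by chance need not hold. *Defb50* in secretory cells of the aging pool was at 1366 CPM in a 20-month mouse given rapamycin, the highest of 10 mice. *Defb50* in basal cells of the same pool was at 3018 CPM in a 28-month mouse without rapamycin, the highest of 9 mice, from 11 basal cells. *Defb1* in *Tgm4*-high prostate-like cells of the diet pool was at 119 CPM in a low protein mouse, the lowest of 6 mice.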

How the results depend on the processing

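Against the other 21 mice, calls over all genes were 1395 to 1621 with 1 FVB aging library left out, and against the 3 diet libraries 15051 with library size scaling. Without a filter on low counts, called members came to 1 under high fat, 2 under low protein, 3 under caloric restriction and 3 with age, and called genes to 23, 41, 73 and 177. DESeq2 called 1 gene under low protein, 16 under caloric restriction and 12 with age (1 member). Library size scaling gave 1 gene under high fat, 17 under caloric restriction and 1 with age. With all passing cells, 0 genes were called under low protein and 0 genes and 0 members under caloric restriction, and without the term for pool or library 0 genes under low protein. With each mouse left out, called members ranged from 0 to 1 under high fat, 0 to 1 under low protein, 1 to 3 under caloric restriction and 0 to 2 with age, and called genes from 0 to 3, 0 to 14, 56 to 120 and 0 to 12.

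For *Lcn8*-rich against *Gpx5*-rich cells, 12 members and 1908 genes differed at 2-fold, 3 members and 226 genes at 8-fold, 11 members and 1203 genes when single cells were split by the larger of both genes, and 333 genes after thinning. Without 1 library, 8 to 9 members and 779 to 1450 genes differed. *Spag11a* turned to 1.99 with the split of single cells.

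Uncalled log2 values that changed sign were *Defb1* under high fat (-0.0087 without a filter, -0.18 with library size, -1.65 to 1.29 with a mouse left out), *Defb42* under high fat (-0.017 with library size, -0.0016 to 0.64), *Defb50* under high fat (-0.23 to 4.11), low protein (-3.46 to 0.16) and caloric restriction (-2.69 to 4.63). The cause was not tested. With a mouse left out of a pair, the lone mouse is assumed to vary like the others.

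The table names number the mice of a pool, and the labels do not say that a number pairs them. Differences between mice 1 and 2 of a condition correlated across genes between conditions at -0.19 to 0.11, so the numbers were not taken as pairs. With a replicate block on these numbers, added after the data had been seen, 0 genes were called under high fat, 6 under low protein (0 members), 26 under caloric restriction and 7 with age. The block gave 2 members under caloric restriction, *Defb42* and *Defb1* (-2.13, adjusted p = 0.0126), and 1 member with age, *Defb1* (adjusted p = 0.0473), by edgeR. *Defb1* under high fat was -0.20 with the replicate block.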
